A study of Mus musculus with 6 samples.

Results

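The genes described here are the machinery of autophagy and of mitophagy in mouse livers after ischemia and reperfusion. They were found by a rule on gene names that uses no measured value, as the rows of the count table whose symbol starts with Atg and a digit, together with the ULK kinases Ulk1 to Ulk4, Becn1, Rb1cc1, the Map1lc3 and Gabarap genes, the cargo receptors Sqstm1, Nbr1, Optn, Calcoco1 and Tax1bp1, and Wipi1, Wipi2, Ambra1, Uvrag, Bnip3l, Fundc1, Pink1, Vmp1 and Wdfy3. The rule found 44 of the 15454 gene rows. One of them, Atg4a-ps, is named as a pseudogene of Atg4a, although GENCODE M21 lists it as protein coding.

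RNA was measured in 6 livers of male C57BL/6 mice aged 8 to 10 weeks, all of which had undergone a warm ischemia-reperfusion injury of 75% of the liver. The 3 I/R mice received vehicle solution, and the 3 I/R+Rk2 mice received ginsenoside Rk2, a rare ginseng saponin, and each was given 2 days ahead of the operation and when blood flow returned. The comparison asks how the drug changed the transcriptome of the injured liver. The labels name no transgene or dose, the study's text places the sequenced treated livers in the higher of its 2 dose groups, all 6 mice were male, and livers of sham-operated mice were not analysed here, so every value describes 1 injured group against another.

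Autophagy encloses cytoplasm, protein aggregates or organelles in a double membrane and delivers them to the lysosome. The ULK complex starts the process, a class III phosphatidylinositol 3-kinase complex marks the growing membrane with phosphatidylinositol 3-phosphate (PI3P), ATG9 vesicles and the ATG2 lipid transfer proteins supply lipid, and an ATG12-ATG5-ATG16L1 conjugate attaches ATG8 proteins (the LC3 and GABARAP families) to it. Cargo receptors bind ATG8 proteins on one side and cargo on the other, and mitophagy is the form that removes mitochondria. The liver depends on it during starvation and for the turnover of mitochondria, and autophagy is much studied in hepatic ischemia and reperfusion.

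Total counts ran from 16809613 to 35618074 per library, and a level of 3 counts stood for 0.0888 to 0.184 CPM (counts per 1000000 after scaling of the libraries by TMM, the trimmed mean of M values). The labelled tissue was checked against 10 hepatocyte markers, which were all present and together held 69283 to 80008 CPM in the I/R livers and 102013 to 127235 CPM in the I/R+Rk2 livers. Alb, from 49227 to 80119 CPM on average, carried most of that rise in the sum, 5 of the 10 markers were higher at an adjusted p below 0.05 in edgeR's quasi-likelihood test, Hnf4a was lower (-0.52 on the log2 scale, adjusted p = 0.00583) and 4 did not pass, against 20.3% of all genes higher and 23.7% lower. All 10 monocyte markers were lower in I/R+Rk2, with a median log2 fold change of -3.99. Their summed level was mostly Fn1, a gene that hepatocytes also use (1609 and 1149.7 CPM on average in I/R and I/R+Rk2), and was 1646 to 1962 CPM in the I/R livers and 1131 to 1188 CPM in the I/R+Rk2 livers. Of the 10 neutrophil markers, 9 were lower, with a median of -2.11, and their sum was 576 to 702 CPM against 108 to 252 CPM. Of the 10 Kupffer cell markers, 2 were lower (83.3 to 128 CPM against 67.4 to 81.6 CPM in sum), a share near that of all genes, and of the 10 endothelial markers 4 were higher and 4 lower. No marker of these lists was at 0 in all 3 I/R+Rk2 livers. In a whole liver, fewer cells of a type and less RNA per cell cannot be told apart, and the part of cell makeup in the results below was not tested.

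Of the 44 genes, 43 passed the filter on low counts and were tested. With edgeR's quasi-likelihood test and Benjamini-Hochberg adjustment over the 12411 genes tested, 12 autophagy genes were higher in I/R+Rk2 at an adjusted p below 0.05, or 27.9% of those tested, against 20.3% of all genes. In the other direction, 4 were lower, or 9.30%, against 23.7% of all genes. Atg2a and Atg9b changed more than 2-fold, which 14.6% of all genes did. Atg9b passed the filter only through the I/R livers, and without it 3 genes were lower and 1 was past 2-fold. The median log2 fold change of the 43 was 0.15, against -0.01 over all genes, and under scaling by library size alone these medians were -0.01 and -0.17. The levels of the 2 groups did not overlap for 20 of the 43 genes, or 46.5%, against 57.4% of all genes. Most changes were small, as the plot of fold changes by role shows.

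**Figure D1:**
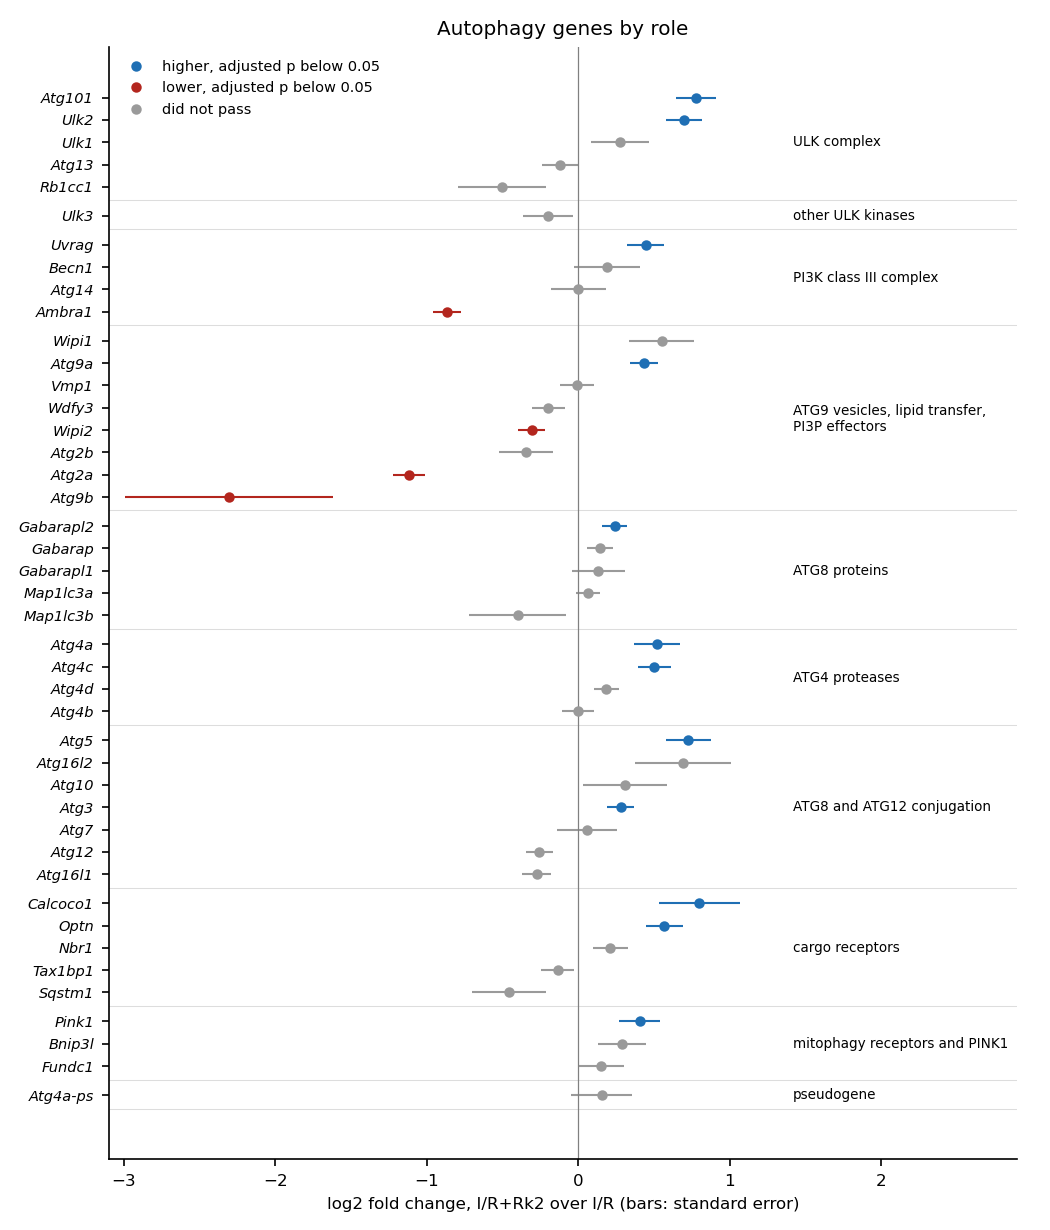
Log2 fold change (I/R+Rk2 over I/R) of the 43 tested autophagy genes, grouped by role, with horizontal bars for the standard error of the edgeR fit. Blue marks the 12 genes that were higher and red the 4 that were lower at an adjusted p below 0.05, and the lowest point, Atg9b at -2.30, has the widest bar. The scale of the libraries sets the balance of the colours. With library size alone 4 genes were higher and 8 lower, against 1320 and 3481 of all 12411 genes.

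The split between higher and lower genes depended on how the libraries were scaled. TMM, relative log expression and upper-quartile factors each gave 12 higher and 4 lower genes. Scaling by library size alone gave 4 higher and 8 lower of 43, against 1320 higher and 3481 lower of all 12411 genes. The share of lower genes among those called went from 25% to 66.7%, and that of all called genes from 53.9% to 72.5%. The deposited FPKM values (fragments per kilobase of transcript per 1000000, which carry no further scaling) gave 4 higher and 7 or 8 lower of 44 genes with limma. Of all 12745 genes, 1204 were higher and 3140 lower on log2(FPKM + 1), and 1199 and 3158 on log2(FPKM + 0.1). Without a filter, 1124 of 15465 were higher and 3009 lower. With library size alone and in the filtered FPKM fits, the share of higher autophagy genes was not above that of all genes. The median log2 fold change of all genes was -0.17 with library size alone and -0.11, -0.18 and -0.05 in the 3 FPKM fits. In each of the 19 fits run the median of the autophagy genes lay above that of all genes, by 0.04 to 0.21 on the log2 scale. These fits draw on the same livers and are not separate support. The difference was 0.16 in the reported fit and 0.10 when the trend of fold change with transcript length was removed.

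In the 18 other fits listed in the plot of calls by processing choice, 6 genes kept their direction and an adjusted p below 0.05 throughout. These were Atg2a and Ambra1, which were lower, and Atg101, Ulk2, Atg5 and Optn, which were higher. Atg9a and Atg4c kept the call whichever liver was left out and lost it in the FPKM fits and with library size alone. The other 8 called genes lost the call when at least 1 liver was left out, and these livers are named beside each gene.

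**Figure D2:**
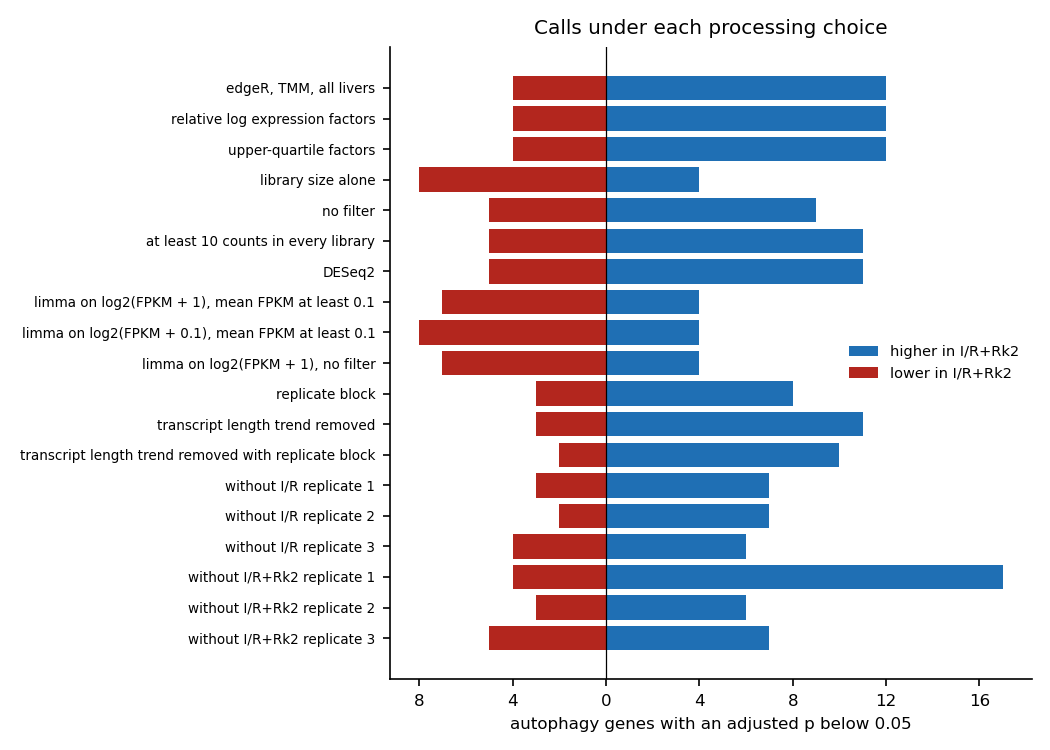
Number of autophagy genes with an adjusted p below 0.05 under the reported fit (top bar, edgeR with TMM) and the 18 others, with genes higher in I/R+Rk2 to the right and genes lower to the left of 0. The right bar ranges from 4 genes with library size alone or FPKM to 17 without I/R+Rk2 replicate 1.

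The 6 genes that passed in every fit start in the following places, shown to give the sequence in front of the genes the results rest on. Each line is the stretch before the RefSeq transcription start (GRCm38.p6, the assembly behind mm10), from at most 120 bases upstream and ended before the first base of the gene in GENCODE M21, written 5′ to 3′ on the strand of the gene. Atg3 is added because its window held a pair of E-boxes, the sequence bound by TFEB, TFE3 and related factors that act on autophagy and lysosome genes. Capitals mark the E-box CACGTG.
Atg2a: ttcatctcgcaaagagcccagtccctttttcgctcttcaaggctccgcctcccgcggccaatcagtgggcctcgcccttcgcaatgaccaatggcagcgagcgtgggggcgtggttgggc
Ambra1: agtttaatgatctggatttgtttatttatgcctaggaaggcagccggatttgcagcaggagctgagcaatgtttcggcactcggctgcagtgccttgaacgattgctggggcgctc
Atg101: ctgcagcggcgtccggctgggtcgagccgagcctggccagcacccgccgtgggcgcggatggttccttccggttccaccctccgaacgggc
Ulk2: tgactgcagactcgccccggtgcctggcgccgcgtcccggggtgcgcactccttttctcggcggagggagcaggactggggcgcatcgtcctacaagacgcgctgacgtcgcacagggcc
Atg5: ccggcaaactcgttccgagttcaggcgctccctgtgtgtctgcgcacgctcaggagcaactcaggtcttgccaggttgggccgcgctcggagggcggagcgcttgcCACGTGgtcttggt
Optn: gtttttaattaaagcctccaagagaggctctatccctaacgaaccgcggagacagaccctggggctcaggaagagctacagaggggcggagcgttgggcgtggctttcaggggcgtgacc
Atg3: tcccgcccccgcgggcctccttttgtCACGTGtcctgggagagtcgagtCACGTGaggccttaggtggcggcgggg
The Atg2a stretch is chr19:6241548-6241667, plus strand. The Ambra1 stretch is chr2:91730018-91730133, plus strand, that of Atg101 chr15:101284181-101284271, plus strand, and that of Ulk2 chr11:61855093-61855212, minus strand. The Atg5 stretch is chr10:44268219-44268338, plus strand, that of Optn chr2:5064118-5064237, minus strand, and that of Atg3 chr16:45158709-45158784, plus strand. The 7 stretches lie outside and directly or closely upstream of the annotated gene. The first 30 bases after the RefSeq start lay in a GENCODE M21 transcript of the gene for Atg2a, Ambra1 and Atg101. For Ulk2, Atg5, Optn and Atg3 they lay in none, so these RefSeq starts are not matched by GENCODE.

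RefSeq windows were matched by symbol for 36 of the 44 genes, with 42 windows in all, and the 250 bases upstream of each start were searched on both strands. The E-box CACGTG, which reads the same on both strands, lay in 3 of the 42 windows and in 6.02% of the 32851 windows of all genes. These were Atg3, with its first bases 94 and 71 bases before the RefSeq start, Atg5, at 14 bases, and Atg7, at 132 bases. The RefSeq start of Atg3 lies 44 bases inside the annotated gene. The Atg7 window (chr6:114670846-114671095) belongs to a start within the annotated gene, not in front of it. TGTTTAC, or GTAAACA on the other strand, is the core bound by FOXO factors, and it was in no window of these genes and in 3.17% of all windows. The cyclic AMP response element TGACGTCA, which does not overlap the other motifs, was in the Atg16l2 window, which overlaps the annotated gene over 163 bases, 18 bases before the start, and in 1.55% of all windows. Atg5 and Atg3 were higher in I/R+Rk2, Atg7 did not pass, and a match is a description of the letters only.

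The ULK complex, the kinase assembly that starts autophagy, had 2 of 5 tested members higher and none lower. Each count by role, here and below, stands against 20.3% of all genes higher and 23.7% lower. With so few genes per role, such a count does not describe the role as a whole. ATG101 holds the complex together by stabilising ATG13. Atg101 was measured at 13.6, 15.1 and 14.4 CPM in the I/R livers and 21.2, 28.4 and 24.2 CPM in the I/R+Rk2 livers. Every I/R+Rk2 liver lay above every I/R liver, and the Atg101 log2 fold change was 0.78 ± 0.13 (SE, adjusted p = 0.00365). ULK2 is, with ULK1, the kinase of the complex. Ulk2 was measured at 34.8, 33.2 and 34.8 CPM in the I/R livers and 46.7, 58.0 and 62.1 CPM in the I/R+Rk2 livers. The 2 groups lay apart, I/R+Rk2 replicate 1 was the lowest of its group, and the Ulk2 log2 fold change was 0.70 ± 0.12 (SE, adjusted p = 0.00374). Its paralog Ulk1 was at 55.2, 48.9 and 47.1 CPM (I/R) against 43.2, 67.4 and 72.4 CPM (I/R+Rk2), with I/R+Rk2 replicate 1 below all I/R livers. The Ulk1 log2 fold change was 0.28 ± 0.19 (SE, adjusted p = 0.272), and without that liver 0.46 with an adjusted p of 0.012. Atg13, the regulatory subunit phosphorylated by mTORC1, ranged over 63.6 to 73.4 CPM (I/R) and 53.2 to 67.1 CPM (I/R+Rk2) and did not pass. Rb1cc1, the scaffold FIP200, was at 9.28, 4.57 and 5.26 CPM (I/R) against 3.82, 4.26 and 5.40 CPM (I/R+Rk2), with I/R replicate 1 high, and its log2 fold change was -0.50 ± 0.29 (SE, adjusted p = 0.201).

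The more distant kinase genes of the family are Ulk3 and Ulk4, which are less tied to autophagy. Ulk3 ranged over 5.78 to 7.30 CPM (I/R) and 5.04 to 6.56 CPM (I/R+Rk2) and did not pass. Ulk4 was the 1 gene that the filter on low counts removed, with 4, 19 and 12 counts in I/R and 0, 0 and 0 counts in I/R+Rk2. All 3 I/R+Rk2 libraries were at 0. Against a chosen floor of 3 counts per library, the mean of the I/R livers was at least 3.58-fold higher. I/R replicate 1, with 4 counts, was itself close to that floor. Ulk4 passed as lower in DESeq2 (adjusted p = 0.00112), in edgeR without a filter (adjusted p = 0.0136) and in the 3 FPKM fits. It entered these fits only through the I/R livers, which held all of its counts, so these passes add no support. Its exons overlap 759 bases of Ctnnb1 exons on the other strand, and since the strand setting is not stated, reads of the 2 genes cannot be told apart there.

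The class III phosphatidylinositol 3-kinase complex makes the PI3P of the growing membrane, and 1 of 4 tested members was higher and 1 lower. AMBRA1 binds Beclin 1 and is a scaffold for ULK1 ubiquitination, and it also acts in mitophagy. Ambra1 was measured at 38.2, 32.7 and 35.6 CPM in the I/R livers and 19.6, 19.4 and 19.4 CPM in the I/R+Rk2 livers. The I/R+Rk2 livers were almost equal to each other and lay far below the I/R livers, and the Ambra1 log2 fold change was -0.87 ± 0.09 (SE, adjusted p = 0.000772). UVRAG is a Beclin 1 partner with a role in autophagosome and endosome maturation. Uvrag was measured at 17.6, 20.8 and 19.2 CPM in the I/R livers and 22.7, 27.6 and 28.3 CPM in the I/R+Rk2 livers. No I/R+Rk2 liver overlapped an I/R liver, and the Uvrag log2 fold change was 0.45 ± 0.12 (SE, adjusted p = 0.023). The call was lost without I/R replicate 1 (adjusted p = 0.0762), I/R replicate 3 (0.0701), I/R+Rk2 replicate 2 (0.0761) or I/R+Rk2 replicate 3 (0.0647), and 1589 bases of its exons overlap the antisense Gm45187. Becn1, which encodes Beclin 1, spread over 28.1 to 51.5 CPM (I/R) and 41.4 to 53.1 CPM (I/R+Rk2), and Atg14, the subunit that directs the complex to autophagosomes, over 13.3 to 17.1 CPM (I/R) and 11.6 to 17.2 CPM (I/R+Rk2). Neither passed, and 3104 bases of Becn1 exons overlap Cntd1 on the other strand.

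Among the genes of ATG9 vesicles, lipid transfer and PI3P effectors, 1 of 8 tested was higher and 3 were lower. Atg9b, 1 of these 3, passed the filter on low counts only through the I/R livers, so its call adds no support to that count. ATG2A carries lipid from the endoplasmic reticulum into the growing membrane. Atg2a was measured at 81.3, 65.4 and 68.6 CPM in the I/R livers and 32.3, 35.1 and 31.9 CPM in the I/R+Rk2 livers. All I/R+Rk2 livers were at about the same low level, and I/R replicate 1 was the highest liver. The Atg2a log2 fold change was -1.12 ± 0.11 (SE, adjusted p = 0.000588), the smallest adjusted p of the 43 genes. Without I/R replicate 1 Atg2a still passed, as it did without each other liver. Its paralog Atg2b was at 22.6, 30.01 and 27.6 CPM (I/R) against 16.3, 22.4 and 24.7 CPM (I/R+Rk2), and the groups overlapped. The Atg2b log2 fold change was -0.34 ± 0.18 (SE, adjusted p = 0.16).

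ATG9A is the lipid scramblase of the vesicles that seed the membrane, and ATG9B is its paralog of narrower expression. Atg9a was measured at 38.8, 46.0 and 40.1 CPM in the I/R livers and 55.2, 56.3 and 57.2 CPM in the I/R+Rk2 livers. The I/R+Rk2 livers were close together and above all I/R livers, and the Atg9a log2 fold change was 0.43 ± 0.09 (SE, adjusted p = 0.00887). The call was lost under library size alone (0.27, adjusted p = 0.065) and also in the FPKM fits (0.11, adjusted p = 0.416 to 0.463), and 1832 bases of its exons overlap Gm29253 on the same strand, whose reads the counting could have split. Atg9b had few counts, 30, 19 and 17 counts in I/R and 6, 9 and 0 counts in I/R+Rk2, which are 1.56, 0.741 and 0.678 CPM (I/R) against 0.252, 0.266 and 0 CPM (I/R+Rk2). It passed the filter on low counts only through the I/R livers and is not tested when at least 10 counts are required in every library. The I/R+Rk2 livers were all below the I/R livers, and the Atg9b log2 fold change was -2.30 ± 0.69 (SE, adjusted p = 0.031). The call was kept without I/R+Rk2 replicate 3 and lost without any other liver, with an adjusted p of 0.108 when I/R replicate 1 was left out, 0.0527 for I/R replicate 2, 0.0522 for I/R replicate 3, 0.055 for I/R+Rk2 replicate 1 and 0.0649 for I/R+Rk2 replicate 2. In addition, 294 bases of Atg9b exons overlap Nos3, the endothelial nitric oxide synthase gene, on the other strand.

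WIPI proteins read PI3P on the membrane, and WIPI2 recruits ATG16L1 to it. Wipi2 was measured at 81.5, 83.6 and 75.5 CPM in the I/R livers and 60.5, 65.3 and 69.0 CPM in the I/R+Rk2 livers. The groups did not overlap, and the Wipi2 log2 fold change was -0.31 ± 0.09 (SE, adjusted p = 0.027). That call was lost without I/R replicate 1 (adjusted p = 0.0893), I/R replicate 2 (0.0784), I/R+Rk2 replicate 1 (0.0518) or I/R+Rk2 replicate 2 (0.0698). It was also lost when the trend with transcript length was removed (-0.13, adjusted p = 0.271). Wipi1 was at 9.38, 10.1 and 10.2 CPM (I/R) against 9.92, 16.1 and 17.6 CPM (I/R+Rk2), with I/R+Rk2 replicate 1 among the I/R livers and the other 2 above them. The Wipi1 log2 fold change was 0.55 ± 0.21 (SE, adjusted p = 0.0709), and without that liver 0.76 with an adjusted p of 0.00394. Vmp1, an endoplasmic reticulum scramblase needed for autophagosome release, ranged over 92.1 to 113 CPM (I/R) and 96.7 to 114 CPM (I/R+Rk2), and Wdfy3, an adaptor for aggregates, over 36.4 to 36.9 CPM (I/R) and 27.4 to 34.9 CPM (I/R+Rk2). Neither passed, although the Wdfy3 livers of the 2 groups did not overlap.

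**Figure D3:**
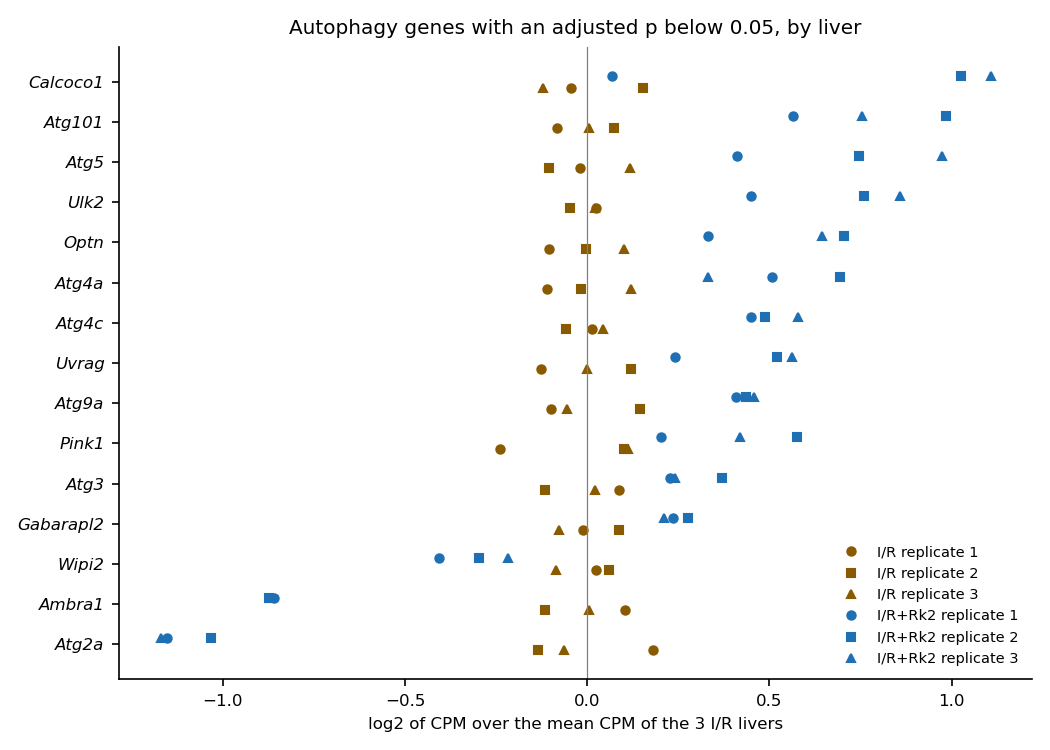
Level of 15 of the 16 called autophagy genes in each liver, as log2 of CPM over the mean CPM of the 3 I/R livers (brown, lower row of a gene) with the I/R+Rk2 livers in blue above, and 1 symbol shape per replicate number. Atg9b is left out because 1 of its libraries was at 0, and the groups overlap for Calcoco1 only. I/R+Rk2 replicate 1 (blue circles) is the lowest of its group for 10 of the 12 higher genes. This was not counted over all higher genes, so it cannot be called particular to these. The zero line depends on TMM scaling, under which Atg2a and Ambra1 are farthest to the left.

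The ATG8 proteins are the ubiquitin-like proteins attached to the membrane, and 1 of 5 was higher and none lower. GABARAPL2 (GATE-16) belongs to the GABARAP branch, which acts late in autophagosome formation. Gabarapl2 was measured at 33.0, 35.4 and 31.5 CPM in the I/R livers and 39.2, 40.3 and 38.6 CPM in the I/R+Rk2 livers. No I/R+Rk2 liver overlapped an I/R liver, and the Gabarapl2 log2 fold change was 0.24 ± 0.08 (SE, adjusted p = 0.0491). It is the weakest of the 16 calls, for it was lost in each of the 6 fits without 1 liver (adjusted p = 0.0568 to 0.168) and with DESeq2 (0.0639). Gabarap was at 152, 138 and 158 CPM (I/R) against 162, 171 and 163 CPM (I/R+Rk2), and Gabarapl1 was at 210.5, 211 and 199 CPM (I/R) against 164, 256 and 261 CPM (I/R+Rk2). Neither passed, and I/R+Rk2 replicate 1 had the lowest Gabarapl1 level of all 6 livers.

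LC3B, encoded by Map1lc3b, is the ATG8 protein most used to follow autophagy. Map1lc3b was at 73.5, 32.7 and 33.1 CPM (I/R) against 29.2, 37.7 and 38.7 CPM (I/R+Rk2), and I/R replicate 1 stood far above the other 5 livers. The Map1lc3b log2 fold change was -0.40 ± 0.32 (SE, adjusted p = 0.347), and without I/R replicate 1 it was 0.11 with an adjusted p of 0.619. The direction of this gene therefore rested on that 1 liver. Map1lc3a was at 29.1, 28.3 and 27.6 CPM (I/R) against 29.5, 30.5 and 29.0 CPM (I/R+Rk2) and did not pass.

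ATG4 proteases trim ATG8 proteins before they are attached and release them afterwards, and 2 of the 4 genes were higher and none lower. Atg4c was measured at 7.14, 6.79 and 7.30 CPM in the I/R livers and 9.67, 9.92 and 10.6 CPM in the I/R+Rk2 livers. The 2 groups lay apart, and the Atg4c log2 fold change was 0.50 ± 0.11 (SE, adjusted p = 0.0103). It was lost under library size alone (0.34, adjusted p = 0.085) and also in the FPKM fits (adjusted p = 0.171 to 0.202). Atg4a, on the X chromosome, was measured at 4.80, 5.11 and 5.62 CPM in the I/R livers and 7.36, 8.38 and 6.51 CPM in the I/R+Rk2 livers. The groups did not overlap, and the Atg4a log2 fold change was 0.52 ± 0.15 (SE, adjusted p = 0.0268). It was lost without I/R replicate 1 (adjusted p = 0.0717), 2 (0.0703) or 3 (0.0507), or I/R+Rk2 replicate 2 (0.0981). Reads of Atg4a and of its near copy Atg4a-ps, which ranged over 2.07 to 2.46 CPM (I/R) and 2.15 to 2.72 CPM (I/R+Rk2) and did not pass, could have been split by the counting. Atg4b, the protease with the broadest activity, was at 21.0, 20.4 and 19.3 CPM (I/R) against 21.5, 20.9 and 18.2 CPM (I/R+Rk2). Atg4d was at 21.9, 22.4 and 22.2 CPM (I/R) against 26.1, 25.0 and 24.6 CPM (I/R+Rk2), which did not overlap between the groups and did not pass. Its value depends on the processing, for it passed as higher with the transcript length trend removed (0.40, adjusted p = 0.0116) and was -0.18 to -0.20 in the FPKM fits (adjusted p = 0.442 to 0.484), and 1405 bases of its exons overlap Kri1 on the other strand.

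The conjugation genes attach ATG12 to ATG5 and ATG8 proteins to lipid, and 2 of the 7 tested were higher and none lower. ATG5 is the acceptor of ATG12. Atg5 was measured at 35.6, 33.6 and 39.1 CPM in the I/R livers and 48.0, 60.5 and 70.8 CPM in the I/R+Rk2 livers. The I/R+Rk2 livers were all above the I/R livers, though they differed among themselves, and the Atg5 log2 fold change was 0.73 ± 0.15 (SE, adjusted p = 0.00776). ATG3 is the E2-like enzyme that passes ATG8 proteins to the membrane. Atg3 was measured at 50.2, 43.6 and 48.0 CPM in the I/R livers and 55.3, 61.0 and 55.9 CPM in the I/R+Rk2 livers. The 2 groups lay apart, and the Atg3 log2 fold change was 0.28 ± 0.09 (SE, adjusted p = 0.04). That call was lost without I/R replicate 2 (adjusted p = 0.116), I/R replicate 3 (0.0915), I/R+Rk2 replicate 2 (0.122) or I/R+Rk2 replicate 3 (0.0634), and with library size alone (0.12, adjusted p = 0.487).

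The other conjugation genes did not pass, and 2 of them had all I/R+Rk2 livers below all I/R livers. Atg12 was at 35.9, 37.0 and 40.0 CPM (I/R) against 29.5, 33.2 and 31.7 CPM (I/R+Rk2), with no overlap, and its log2 fold change was -0.26 ± 0.09 (SE, adjusted p = 0.0516). Atg16l1, the partner of the ATG12-ATG5 conjugate, was at 24.03, 23.9 and 24.2 CPM (I/R) against 21.1, 18.3 and 20.4 CPM (I/R+Rk2), again with no overlap, and the Atg16l1 log2 fold change was -0.27 ± 0.09 (SE, adjusted p = 0.052). Both passed as lower under library size alone (adjusted p = 0.0148 and 0.0262), in every FPKM fit and with at least 10 counts required in every library (0.0392 and 0.0439). Atg16l2, a paralog of Atg16l1, was at 9.49, 12.3 and 8.37 CPM (I/R) against 9.33, 22.9 and 16.5 CPM (I/R+Rk2). The groups overlapped, with I/R+Rk2 replicate 1 among the I/R livers, and the Atg16l2 log2 fold change was 0.69 ± 0.32 (SE, adjusted p = 0.117). Without that liver it was 0.96 with an adjusted p of 0.014. Atg7, the E1-like enzyme of both reactions, spread over 28.0 to 37.2 CPM (I/R) and 24.3 to 39.5 CPM (I/R+Rk2), and Atg10, the E2-like enzyme for ATG12, over 2.15 to 2.75 CPM (I/R) and 2.03 to 3.97 CPM (I/R+Rk2). Neither passed.

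Cargo receptors link what is to be degraded to ATG8 proteins, and 2 of the 5 were higher and none lower. Optineurin, encoded by Optn, is a receptor for ubiquitin-tagged mitochondria and bacteria. Optn was measured at 28.8, 30.9 and 33.2 CPM in the I/R livers and 39.0, 50.5 and 48.5 CPM in the I/R+Rk2 livers. No I/R+Rk2 liver overlapped an I/R liver, and the Optn log2 fold change was 0.57 ± 0.12 (SE, adjusted p = 0.00896). CALCOCO1 is a receptor for autophagy of the endoplasmic reticulum. Calcoco1 was measured at 10.6, 12.2 and 10.1 CPM in the I/R livers and 11.5, 22.4 and 23.6 CPM in the I/R+Rk2 livers. It is the only called gene whose groups overlapped, because I/R+Rk2 replicate 1 lay among the I/R livers. The Calcoco1 log2 fold change was 0.80 ± 0.26 (SE, adjusted p = 0.0437). Among the fits without 1 liver, the call was kept only without that one and was lost without I/R replicates 1 (adjusted p = 0.115), 2 (0.0729) and 3 (0.12) or I/R+Rk2 replicates 2 (0.129) and 3 (0.12).

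SQSTM1, or p62, binds ubiquitinated cargo and is itself degraded with it. Sqstm1 was at 712, 561 and 369 CPM (I/R) against 359, 483 and 354 CPM (I/R+Rk2). In CPM, I/R replicate 1 was the highest, and I/R replicate 3 was as low as the I/R+Rk2 livers. In FPKM, I/R replicate 3 was not low. The values there were 380, 260 and 295 FPKM (I/R) against 167, 217 and 156 FPKM (I/R+Rk2), with no overlap. The Sqstm1 log2 fold change was -0.46 ± 0.24 (SE, adjusted p = 0.166), and it passed without I/R replicate 3 (-0.68, adjusted p = 0.0349) and in the FPKM fits (adjusted p = 0.0109 to 0.0245). Its exons share 580 bases with Mrnip on the other strand. Nbr1, a receptor for aggregates and peroxisomes, ranged over 107 to 113 CPM (I/R) and 107 to 143 CPM (I/R+Rk2), and Tax1bp1, a receptor for ubiquitinated protein, over 65.3 to 79.7 CPM (I/R) and 62.5 to 72.1 CPM (I/R+Rk2). Neither passed.

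Of the 3 mitophagy genes, 1 was higher and none was lower. PINK1 is the kinase that accumulates on damaged mitochondria and recruits Parkin. Pink1 was measured at 102, 129 and 130.4 CPM in the I/R livers and 139, 179.9 and 161 CPM in the I/R+Rk2 livers. The groups did not overlap, and the Pink1 log2 fold change was 0.41 ± 0.14 (SE, adjusted p = 0.0448). The call was kept without I/R+Rk2 replicate 1 and was lost without I/R replicates 1 (adjusted p = 0.108), 2 (0.0646) and 3 (0.0713) or I/R+Rk2 replicates 2 (0.142) and 3 (0.0939). Bnip3l (NIX), a receptor on the outer mitochondrial membrane that removes mitochondria in hypoxia, was at 38.7, 35.1 and 45.9 CPM (I/R) against 39.4, 50.4 and 56.5 CPM (I/R+Rk2). The Bnip3l log2 fold change was 0.29 ± 0.16 (SE, adjusted p = 0.178). Fundc1, a hypoxia-regulated receptor of the same membrane, ranged over 5.66 to 7.49 CPM (I/R) and 6.68 to 7.80 CPM (I/R+Rk2) and did not pass.

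I/R+Rk2 replicate 1 lay closer to the I/R livers than the other 2 treated livers for several of these genes. Without it, 17 of 44 tested genes were higher and 4 lower, against 2401 higher and 3058 lower of all 12653 genes. Where it lay nearest to the I/R livers, leaving it out raises the fold change by construction. Genes that newly passed as higher without this liver were, beside Ulk1, Wipi1 and Atg16l2, Bnip3l (0.41, adjusted p = 0.0483), Gabarapl1 (0.31, adjusted p = 0.0256) and Nbr1 (0.32, adjusted p = 0.0226). Atg16l1 and Ulk4 newly passed as lower, and the calls of Gabarapl2, Wipi2 and Atg9b were lost. I/R+Rk2 replicate 1 had the highest summed neutrophil markers of its group (252 CPM against 137 and 108) and the lowest summed hepatocyte markers (102013 CPM against 127235 and 120650). Whether these differences between livers bear on the autophagy genes was not tested.

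Levels can be compared between genes only per length, on the FPKM scale. Sqstm1 had the highest level of the 44 genes, 312 ± 62.0 FPKM (I/R) and 180.2 ± 32.2 FPKM (I/R+Rk2) (SD, n = 3), and each of its 6 values was above all values of the next gene. Gabarap followed at 122 ± 12.6 FPKM (I/R) and 120.04 ± 4.90 FPKM (I/R+Rk2) and Gabarapl1 at 119 ± 11.5 FPKM (I/R) and 116 ± 24.2 FPKM (I/R+Rk2), which did not differ beyond their spread. Pink1 was at 51.7 ± 0.918 FPKM (I/R) and 59.8 ± 6.90 FPKM (I/R+Rk2), and its values overlapped those of Vmp1. Among the ATG8 genes Map1lc3a was at 28.2 ± 2.80 FPKM (I/R) and 28.3 ± 0.445 FPKM (I/R+Rk2), Gabarapl2 at 20.8 ± 1.88 FPKM (I/R) and 22.1 ± 0.694 FPKM (I/R+Rk2) and Map1lc3b at 19.1 ± 10.2 FPKM (I/R) and 12.6 ± 0.572 FPKM (I/R+Rk2). Atg2a was at 12.5 ± 2.41 FPKM (I/R) and 5.27 ± 0.508 FPKM (I/R+Rk2) and Ambra1 at 7.17 ± 1.27 FPKM (I/R) and 3.42 ± 0.183 FPKM (I/R+Rk2). The lowest levels were those of Ulk4 and Atg9b, and Atg9b was at 0.254 ± 0.143 FPKM (I/R) and 0.0366 ± 0.0321 FPKM (I/R+Rk2).

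Ratios of related genes within a library do not depend on how libraries are scaled. They were compared for 5 pairs whose genes had at least 10 counts in every library, which left out Atg9b to Atg9a. The ratios do keep any trend with transcript length where the genes of a pair differ in length. The longest transcripts of Wipi1 and Wipi2, for example, have 3338 and 5171 bases. With 3 livers against 3, an exact permutation test (two-sided) cannot give a p below 0.1, so no pair could pass. The ratio of Ulk2 to Ulk1 counts was 0.631, 0.678 and 0.738 in I/R and 1.08, 0.860 and 0.858 in I/R+Rk2, or 1.36 times higher. The ratio of Atg2a to Atg2b counts was 3.60, 2.18 and 2.48 in I/R and 1.98, 1.56 and 1.29 in I/R+Rk2, or 0.590 times the I/R ratio. For Wipi1 to Wipi2 it was 0.115, 0.121 and 0.135 in I/R and 0.164, 0.246 and 0.255 in I/R+Rk2, or 1.76 times higher. In each of these 3 pairs the groups did not overlap and the exact permutation p was 0.1, the smallest it can be, or 0.167 after Benjamini-Hochberg adjustment over the 5 pairs. Each of the 3 pairs holds a gene called in the same livers (Ulk2, Atg2a or Wipi2), so the separation adds no support to those calls. How often ratios of other gene pairs separate was not counted. The groups overlapped for Atg16l2 to Atg16l1 (exact permutation p = 0.2, adjusted 0.25) and for Map1lc3b to Map1lc3a (exact permutation p = 0.6, adjusted 0.6).

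**Figure D4:**
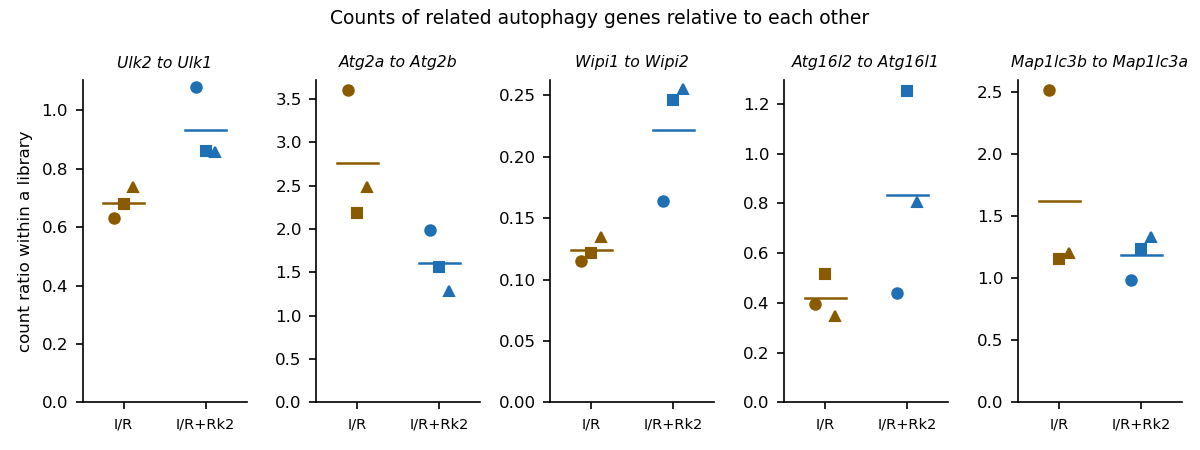
Ratio of the counts of 2 related genes within each library, for 5 pairs, with a point per liver (circle, square and triangle for replicates 1, 2 and 3), a line at the group mean and axes from 0. The groups are apart for the first 3 pairs and overlap for the last 2, where I/R replicate 1 gives the high ratio of 2.52 for Map1lc3b to Map1lc3a.

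Fold changes went along with transcript length over all genes. The median log2 fold change went from 0.23 among the shortest of 12210 genes, split by length into 5 equal groups, to 0.11, -0.03, -0.14 and -0.25 in the longer groups, and Spearman's rho was -0.22. Over the 42 tested autophagy genes other than Atg4a-ps rho was -0.35, a description across genes of the same 6 libraries. The median longest transcript was 2494.5 bases for the 12 higher genes, 5187 bases for the 4 lower and 3751 bases for those that did not pass. With the length trend of each library removed, rho over the 42 genes was -0.04, and removing the trend weakens rho by construction. In that fit 11 autophagy genes were higher and 3 lower, against 2427 higher and 2572 lower of all 12411 genes. Atg2a and Ambra1 were still lower. The calls of Atg3, Gabarapl2, Pink1 and Wipi2 were lost, and Atg4d (0.40, adjusted p = 0.0116) and Nbr1 (0.37, adjusted p = 0.0365) passed as higher. What makes fold change vary with length was not tested.

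**Figure D5:**
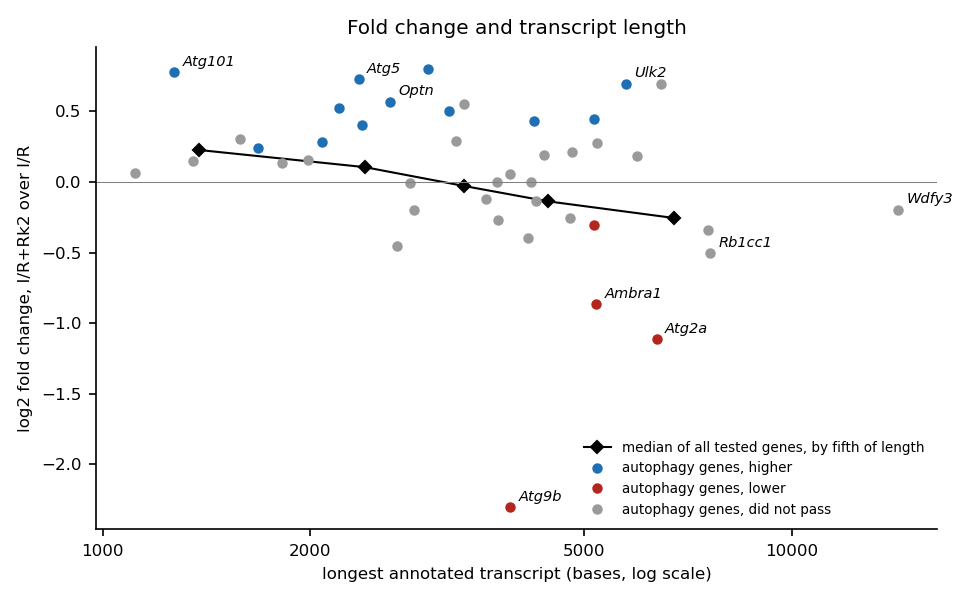
Log2 fold change (I/R+Rk2 over I/R) against the longest annotated transcript in GENCODE M21 (log scale) for 42 autophagy genes, with black diamonds for the median of all tested genes in 5 equal groups by length. The diamonds go from 0.23 to -0.25, and Atg2a, Ambra1 and Atg9b lie well below them while Ulk2 lies above.

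Genes that act on this machinery were read from lists of other pathway genes, each against the same backgrounds of 20.3% higher and 23.7% lower. In the list of mTORC1 and AMPK, the kinases that restrain and promote autophagy, 4 of 24 were higher and 4 lower. Prkaa2, the catalytic AMPK subunit alpha 2, was 23.5 ± 1.52 CPM (I/R) against 44.5 ± 2.04 CPM (I/R+Rk2) (SD, n = 3), with a log2 fold change of 0.92 ± 0.09 (SE, adjusted p = 0.000593). The sestrins, stress-induced inhibitors of mTORC1, went both ways. Sesn2 was 17.8 ± 1.48 CPM (I/R) against 7.33 ± 0.868 CPM (I/R+Rk2), with a log2 fold change of -1.28 ± 0.13 (SE, adjusted p = 0.000753). Sesn1 was 6.31 ± 0.551 CPM (I/R) against 10.9 ± 0.573 CPM (I/R+Rk2), with a log2 fold change of 0.78 ± 0.12 (SE, adjusted p = 0.003).

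Of the transcription factors that act on autophagy genes, 5 of 16 were higher and 4 lower. Hif1a, the hypoxia-inducible factor that drives Bnip3l among others, was 123 ± 6.13 CPM (I/R) against 44.9 ± 6.61 CPM (I/R+Rk2), with a log2 fold change of -1.45 ± 0.12 (SE, adjusted p = 0.00042). Nr1h4, the bile acid receptor FXR that represses autophagy genes in the fed liver, was 42.0 ± 3.01 CPM (I/R) against 80.3 ± 1.55 CPM (I/R+Rk2), with a log2 fold change of 0.94 ± 0.08 (SE, adjusted p = 0.000501). Tfe3, an E-box-binding activator of autophagy and lysosome genes, was 51.8 ± 5.89 CPM (I/R) against 27.7 ± 1.67 CPM (I/R+Rk2), with a log2 fold change of -0.90 ± 0.11 (SE, adjusted p = 0.0012). The Hif1a, Nr1h4 and Tfe3 livers did not overlap between the groups, which held for 57.4% of all genes. These 3 genes were picked by the smallest p of their list, so the separation adds nothing to their calls.

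In the list of PI3P synthesis and turnover, 2 of 10 were higher and 2 lower. Zfyve1, which encodes the PI3P-binding protein DFCP1 found where autophagosomes form, had a log2 fold change of 1.16 ± 0.10 (SE, adjusted p = 0.000379). Pik3c2a, a class II phosphatidylinositol 3-kinase, had one of -0.87 ± 0.14 (SE, adjusted p = 0.00315). Wdr45b, or WIPI3, a relative of Wipi1 and Wipi2, had one of -0.59 ± 0.11 (SE, adjusted p = 0.00471). Among the other mitophagy genes, 6 of 18 tested were higher and 2 lower. Tbk1, the kinase that phosphorylates optineurin, was 26.4 ± 1.36 CPM (I/R) against 16.5 ± 0.868 CPM (I/R+Rk2), with a log2 fold change of -0.68 ± 0.10 (SE, adjusted p = 0.00198), while Optn itself was higher. Nipsnap1, which marks damaged mitochondria, had a log2 fold change of 0.78 ± 0.13 (SE, adjusted p = 0.00343), and Mfn2, a mitochondrial fusion protein targeted by PINK1 and Parkin, one of 0.53 ± 0.10 (SE, adjusted p = 0.00593).

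Receptors for the endoplasmic reticulum and other cargo had 3 of 8 tested genes higher and 1 lower. Tollip, a ubiquitin-binding receptor, had a log2 fold change of -0.47 ± 0.11 (SE, adjusted p = 0.0122). Atl3, an atlastin that remodels the tubules of the reticulum, had one of 0.56 ± 0.13 (SE, adjusted p = 0.0132), and Rtn3, a reticulon receptor, one of 0.27 ± 0.07 (SE, adjusted p = 0.0206). The Tollip call was lost with the length trend removed together with the replicate block (-0.39, adjusted p = 0.0594). The calls of Mfn2, Atl3 and Rtn3 were lost in the FPKM fits, and that of Rtn3 also with library size alone (0.11, adjusted p = 0.412) and without I/R replicate 2 (adjusted p = 0.0511), I/R replicate 3 (0.0717) or I/R+Rk2 replicate 2 (0.0663). Genes of autophagosome-lysosome fusion had 3 of 17 tested higher and 3 lower. Vamp8, a SNARE of that fusion step, was 68.2 ± 4.91 CPM (I/R) against 100.1 ± 0.516 CPM (I/R+Rk2), with a log2 fold change of 0.55 ± 0.08 (SE, adjusted p = 0.00258). Plekhm1, an adaptor between lysosomes and ATG8 proteins, had a log2 fold change of -0.65 ± 0.11 (SE, adjusted p = 0.00408), and Vps18, a HOPS tethering subunit, one of -0.55 ± 0.12 (SE, adjusted p = 0.0091).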

How the data were processed

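Libraries of 6 mouse livers, 3 per group, were built with an MGI kit from 250 ng RNA each. Per the submitters' processing notes and the study's methods, the authors checked reads with FastQC 0.11.5, aligned them to mm10 with HISAT2 2.2.1, handled alignments with SAMtools and assembled expression with StringTie 1.3.3. Annotation and strandedness of the counting were not given in the sources used here. The authors deposited whole-number counts per gene (15454 rows) and FPKM values (21948 rows). How the counts were made whole is not given in the sources used here. Over genes with 1 annotated transcript and 1 to 20 counts, the FPKM times length, scaled to the library and rounded up, equalled the count for 76.9% to 81.4% of genes by library, against 58.4% to 65.1% when rounded to the nearest whole number. Low counts and the floor of 3 carry that uncertainty. Date strings stand in place of gene names in 21 count rows, which are named nowhere here.

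The main test was the edgeR 4.0.16 quasi-likelihood test in R 4.3.3 with no covariate, between treated and vehicle livers. Default filterByExpr left 12411 genes, TMM scaled the libraries, and p-values were adjusted by Benjamini-Hochberg over all genes tested. A gene was called at an adjusted p below 0.05. A log2 fold change sets I/R+Rk2 over I/R, and its SE is the log2 fold change divided by the square root of F. DESeq2 1.42.0, limma 3.58.1 on log2(FPKM + 1) or log2(FPKM + 0.1), other scalings, other filters, a replicate block, removal of the transcript length trend of each library (loess, span 0.5) and leaving out each liver were the alternatives. The study's methods name DESeq2. Libraries of a group differed by far more than sampling noise. Total counts were 16809613 to 35618074 per library, and p-values measure the spread between these livers only.

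The genes and lists were chosen with earlier results of these data known. Values in every liver are given for called genes and for family members compared with them, and at most 3 genes with the smallest p of any list of other pathway genes. Log2 fold changes of the remaining genes are in the plot by role only. Transcript lengths and overlaps come from GENCODE M21 and upstream sequences from RefSeq on GRCm38.p6, where 8 of the 44 genes (Rb1cc1, Wdfy3, Atg12, Bnip3l, Map1lc3a, Atg16l1, Atg4a-ps and Becn1) were not matched.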

Additional observations from a re-analysis of the deposited data

How the results depend on the processing

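Of the 12 higher genes, 4 passed with library size alone and in each of the 3 FPKM fits, while Atg12, Atg16l1 and, by setting, Atg2b, Wdfy3, Sqstm1 or Ulk4 passed there as lower. Lower genes numbered 8 with library size alone and 7, 8 and 7 in the FPKM fits with a pseudocount of 1, of 0.1, and of 1 without a filter. With the transcript length trend removed together with the replicate block 2 genes were lower. Of all 12411 genes, that fit had 2080 higher and 2239 lower. Genes past 2-fold numbered 1 with at least 10 counts required in every library, 1, 4 and 1 in the same FPKM fits, 1 with the length trend removed and 0 with the length trend removed together with the block, where 10 were higher at an adjusted p below 0.05. Leaving out 1 liver gave 6 to 17 higher, 2 to 5 lower and 1 to 3 past 2-fold. Over all genes the same fits gave 1640 to 2401 higher and 2213 to 3058 lower. The counts moved by at most 1.5 times with relative log expression and upper-quartile factors (none moved), without a filter (9 higher, 5 lower and 3 past 2-fold) and with DESeq2 (11, 5 and 3), and 3 genes were past 2-fold with library size alone. The log2 fold change of Map1lc3b was 0.11 without I/R replicate 1 and negative in the other fits, and ranged from -0.60 to 0.11 over the fits without 1 liver. Genes that did not pass and changed sign included Atg4d (-0.18, -0.20 and -0.18) and Nbr1 (-0.0155, -0.0162 and -0.0155) in the FPKM fits. Gabarapl1 did so there (-0.0665, -0.0672 and -0.0665), with library size alone (-0.0364) and with the length trend removed together with the block (-0.0238). Wdfy3 did so with the length trend removed, without and with the block (0.26 in both). Among the other uncalled genes, Gabarap, Atg7, Map1lc3a, Fundc1, Becn1, Atg14, Vmp1, Atg4b and Atg4a-ps also changed sign between fits. No called gene changed direction in any fit, and of 287 values of called genes in the alternatives 91 lost the call.

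The labels give replicate numbers 1 to 3 in both groups, with no word on what a number shares. Same-numbered livers did not deviate together (correlations -0.03, 0.05 and -0.02 over genes), so the numbers were not taken as pairs. With the replicate block 8 autophagy genes were higher, 3 lower and 2 past 2-fold, against 2118, 2595 and 1690 of all 12411 genes. I/R replicate 1 correlated best with I/R+Rk2 replicate 3.

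Depth limits Ulk4 and Atg9b, whose counts are near the floor of 3 per library. With 3 livers per group, no sham liver and whole tissue, the calls describe these livers.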
